A study of Homo sapiens with 12 samples.

Results

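The mitotic and G2/M genes were followed through knockdown and re-expression of EZH2 in BJ cells, a line of human foreskin fibroblasts. The set was a list of 56 genes chosen by name, and its members were every array probe annotated to one of them and called present, with a detection p under 0.05, by 3 or more of the 12 arrays. Of 81 probes annotated to these genes 72 were detected, and they covered 55 of the 56 genes, among 23313 detected probes of 12640 named genes in all. No array detected CDCA2, which is counted as listed but not measured. All cells received lentivirus for 72 h and then siRNA for 60 h. The si-Control and si-EZH2 groups both carried the virus labelled LV-C and differed in the siRNA, which was a control or was directed against EZH2. The EZH2 and T350A re-expression groups received the same siRNA against EZH2 after a virus expressing an RNAi-resistant EZH2, either wild type or T350A, in which alanine replaces a threonine that cyclin-dependent kinases can phosphorylate. Every group had 3 arrays, all groups kept their own EZH2 gene, and the promoter of the virus is not given in the sources used here. The labels do not say whether replicates were separate cultures, and the tests therefore reflect the spread among these arrays only.

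The genes of the set encode the machinery of cell division: the cyclins and kinases that start mitosis, the kinetochore and its checkpoint, the kinesin motors of the spindle, and the proteins that separate chromosomes and daughter cells. Their transcription is known to be held down in resting cells by the DREAM complex and switched on late in the cell cycle by MuvB with B-MYB and then FOXM1. Promoter elements of 2 kinds are known for this control, the cell cycle homology region (CHR), to which DREAM and MuvB bind, and the CCAAT box of the factor NF-Y. In bulk RNA a lower level can reflect fewer cells in division or less RNA per dividing cell, and the arrays cannot tell these apart.

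Promoter sequences were searched for these elements. RefSeq promoters (GRCh38.p14, 250 bases before to 50 after the start) were matched for 47 of the 56 genes; AURKA, BIRC5, CDCA2, FOXM1, PBK, RACGAP1, TPX2, TTK and UBE2C were not matched. The 130 bases before the start are printed 5′ to 3′ on the gene's strand, with capitals marking TTTGAA, the usual CHR, and CCAAT, each on either strand (as TTCAAA or ATTGG). CCNB2, CENPA, PTTG1 and KIF20A are shown because they rose with EZH2 re-expression. KIF11 is shown because its brighter probe fell in every group given the siRNA against EZH2. CKS2 is shown because it was not called in any comparison. The windows are chr15:59105016-59105145, chr2:26785926-26786055, chr5:160421725-160421854 (the first of its listed starts), chr5:138178982-138179111, chr10:92593000-92593129 and chr9:89311065-89311194, all on the plus strand.
CCNB2: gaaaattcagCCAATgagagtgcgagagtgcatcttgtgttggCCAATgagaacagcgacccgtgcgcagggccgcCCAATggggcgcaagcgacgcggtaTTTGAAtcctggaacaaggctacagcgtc
CENPA: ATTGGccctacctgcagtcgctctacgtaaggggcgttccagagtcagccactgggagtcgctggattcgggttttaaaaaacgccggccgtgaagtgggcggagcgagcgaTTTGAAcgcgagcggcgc
PTTG1: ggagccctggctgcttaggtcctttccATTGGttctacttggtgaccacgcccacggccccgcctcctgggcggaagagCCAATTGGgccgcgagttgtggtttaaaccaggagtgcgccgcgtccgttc
KIF20A: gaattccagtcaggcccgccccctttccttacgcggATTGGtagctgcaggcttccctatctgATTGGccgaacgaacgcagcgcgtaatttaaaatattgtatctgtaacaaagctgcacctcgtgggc
KIF11: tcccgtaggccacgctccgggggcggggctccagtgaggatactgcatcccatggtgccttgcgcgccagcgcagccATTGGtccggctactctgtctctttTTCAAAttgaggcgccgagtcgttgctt
CKS2: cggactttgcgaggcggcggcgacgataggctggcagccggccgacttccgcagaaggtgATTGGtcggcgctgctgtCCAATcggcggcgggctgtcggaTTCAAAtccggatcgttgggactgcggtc

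CCNB2 holds 3 CCAAT boxes ahead of 1 CHR, 29 bases before the start, whereas the KIF20A and PTTG1 windows hold CCAAT and not TTTGAA on either strand. KIF11 and CKS2, whose brighter probes did not follow CCNB2, hold both CCAAT and TTTGAA. The latter lies on the opposite strand at 28 and 29 bases before the start. Other forms of the CHR were not searched for, so a window or promoter without TTTGAA is not shown to lack a CHR. Over the 300-base promoters, TTTGAA was present in 33 of 47 member genes (70.2%) and in 18.2% of 27305 genes with a listed promoter. CCAAT was present in 37 of 47 (78.7%) and in 39.7% of all genes. The 13 matched members called higher with EZH2 re-expression held TTTGAA in 9 cases (69.2%), and the 34 not called held it in 24 (70.6%). For CCAAT the counts were 12 of 13 (92.3%) and 25 of 34 (73.5%). These matches describe letters and no binding was measured.

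Each array detected 43.7% to 46.4% of its probes, and replicates of a group correlated at 0.993 to 0.995. On the log2 scale used throughout, the EZH2 probe ILMN_1652913 was at 6.43, 6.13 and 6.41 on the si-Control arrays, 5.46, 5.59 and 5.12 on the si-EZH2 arrays, 8.46, 8.62 and 8.57 on the EZH2 arrays and, for T350A, 7.98, 8.06 and 7.93. The knockdown and both re-expressions were seen, and T350A lay below EZH2 on every array. Both re-expressions exceeded si-Control on this probe, 4.68-fold with EZH2 and 3.17-fold with T350A. On probe ILMN_2364529 they exceeded it 7.18-fold and 2.93-fold. A probe of EZH2 that did not rise with either virus, ILMN_1708105, read 6.68 to 6.96 in si-Control, 5.56 to 5.77 in si-EZH2, 5.68 to 5.99 in the EZH2 group and 5.70 to 6.14 in the T350A group. Fibroblast markers were detected on all 12 arrays in 8 of 8 cases, at mean log2 signals of 12.62 to 14.82. Endothelial markers were detected in 0 of 4 cases, and the leukocyte marker PTPRC on no array, though CD79A read 5.36. Of 5 epithelial markers CDH1 was on no array, and KRT19 read 12.07, KRT8 7.68, KRT18 7.28 and EPCAM 5.79. All arrays lay on 1 chip. By their section letters the si-Control arrays were at positions 1, 3 and 6, si-EZH2 at 5, 7 and 8, EZH2 re-expression at 9, 10 and 11, and T350A re-expression at 2, 4 and 12. Position and group could be separated only through a linear term.

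Across the 4 groups most mitotic genes had their lowest mean after EZH2 knockdown, and most, not always the same ones, had their highest with wild-type EZH2. Each gene was represented by its brightest detected probe, and si-EZH2 had the lowest group mean for 39 of 55 genes (70.9%) and the highest for 0. EZH2 re-expression had the highest mean for 36 of 55 genes (65.5%) and si-Control for 17. Both held together in 26 of 55 genes (47.3%). Over all 12640 genes the corresponding shares were 24.3% lowest in si-EZH2 and 26.1% highest with EZH2. The 6 pairwise comparisons share arrays, si-EZH2 and si-Control in 3 each, so their values are given side by side. The commonest order of means, found in 14 genes, was EZH2 re-expression, si-Control, T350A re-expression and then si-EZH2. By limma's moderated F-test 17 of 55 genes differed among the groups, where 8.42% of all tested genes did.

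**Figure D1:**
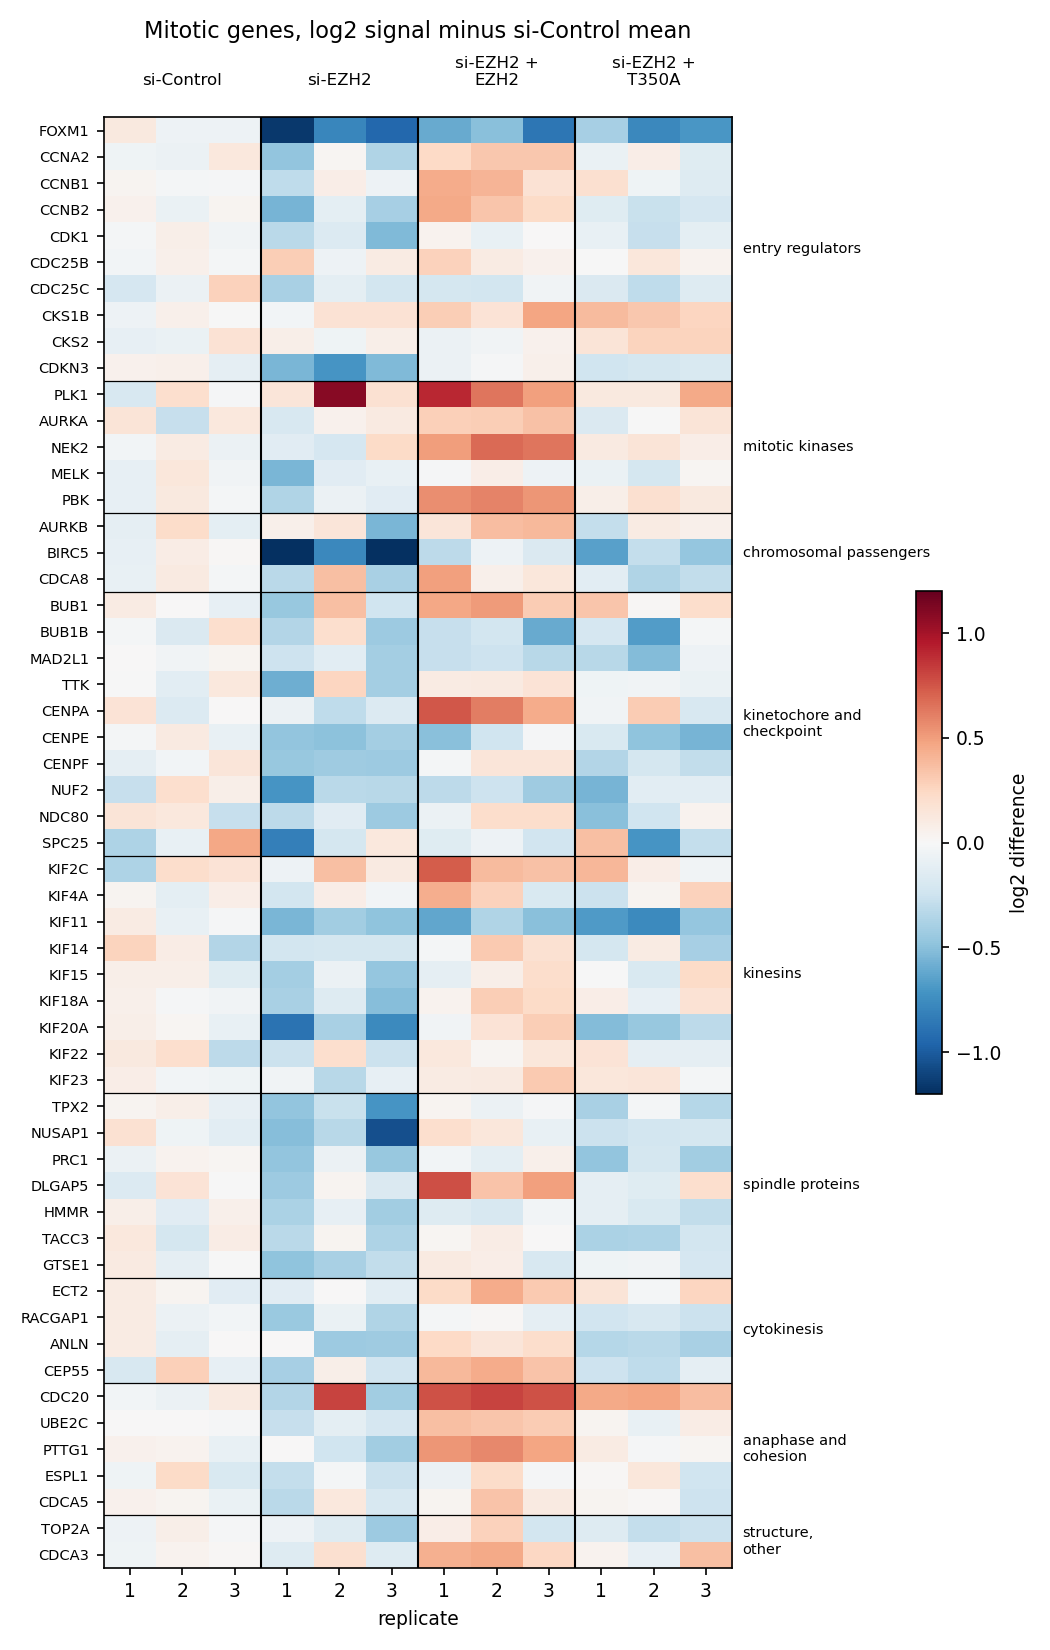
Log2 signal of each of the 55 measured mitotic genes on each of the 12 arrays, minus that gene's si-Control mean, with genes grouped by role along the vertical axis and arrays by group and replicate along the horizontal axis. The si-EZH2 columns are mostly below si-Control (blue) and the EZH2 re-expression columns mostly above (red). FOXM1 and KIF11, each by its brightest probe, stay below si-Control in all 9 arrays given the siRNA against EZH2.

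The mean over the 55 genes, as a difference from si-Control on the log2 scale, was -0.01, 0.02 and -0.01 on the si-Control arrays and -0.35, -0.08 and -0.31 on the si-EZH2 arrays. The EZH2 arrays gave 0.14, 0.17 and 0.11, and the T350A arrays -0.10, -0.13 and -0.09. The EZH2 re-expression arrays lay above every si-Control array, and the T350A arrays lay below every si-Control array. The group means of this quantity were -0.25 ± 0.15, 0.14 ± 0.03 and -0.11 ± 0.02 (SD, n = 3) for si-EZH2, EZH2 and T350A re-expression. The median over all tested genes stayed between -0.00414 and 0.00268 on the si-EZH2 and re-expression arrays. Quantile normalization gives every array the same distribution, so the processing itself holds this median near 0, here and in the comparisons below.

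**Figure D2:**
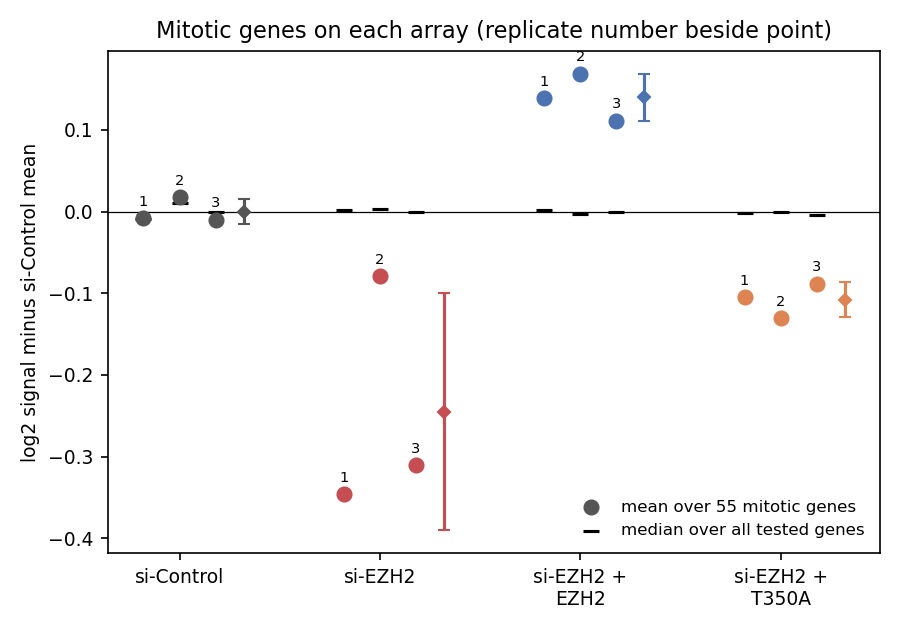
Mean over the 55 measured mitotic genes on each array (circles, numbered by replicate) as a log2 difference from si-Control, with the mean and SD of each group (diamonds, n = 3) and the median over all tested genes (dashes). The 3 EZH2 re-expression arrays lie at 0.11 to 0.17, the 3 T350A arrays at -0.13 to -0.09, and si-EZH2 replicate 2 at -0.08 stands above replicates 1 and 3 at -0.35 and -0.31.

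A single si-EZH2 array stood apart in these genes. Replicate 2 was the highest of the 3 si-EZH2 arrays for 40 of 55 mitotic genes (72.7%), against 35.3% of all tested genes. The median SD between si-EZH2 replicates was 0.20 for the mitotic genes and 0.12 for all genes, whereas with EZH2 re-expression both were 0.11. CDC20 and PLK1, chosen after their values were seen, show it. CDC20, the activator of the anaphase-promoting complex, read 8.26, 8.21 and 8.40 on the si-Control arrays, 7.94, 9.10 and 7.87 on the si-EZH2 arrays, 9.05, 9.10 and 9.05 on the EZH2 arrays and, for T350A, 8.74, 8.76 and 8.66. PLK1, the Polo-like kinase of mitotic entry and spindle assembly, read 4.76, 5.16 and 4.94 on the si-Control arrays, 5.09, 6.05 and 5.14 on the si-EZH2 arrays, 5.86, 5.59 and 5.44 on the EZH2 arrays and, for T350A, 5.07, 5.07 and 5.41. In both genes si-EZH2 replicate 2 lay with or above the EZH2 re-expression arrays while its fellow replicates lay within or below the si-Control range. EZH2 itself was highest on replicate 2 among the si-EZH2 arrays by probe ILMN_1652913 (5.59, against 5.46 and 5.12), below every si-Control array. By probe ILMN_1708105 replicates 1, 2 and 3 read 5.56, 5.76 and 5.77, so replicate 2 was not the highest. Probe ILMN_2364529 was not detected on any si-EZH2 array. Each comparison that uses si-EZH2 is therefore given with and without this array.

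Among the entry regulators, FOXM1 and the cyclins took different courses. FOXM1, the transcription factor that activates late cell cycle genes, read 7.15, 6.97 and 6.97 on the si-Control arrays, 5.87, 6.25 and 6.08 on the si-EZH2 arrays, 6.43, 6.53 and 6.16 on the EZH2 arrays and, for T350A, 6.63, 6.26 and 6.33. All 9 arrays with the siRNA against EZH2 were below all 3 si-Control arrays. FOXM1 fell by 0.96 ± 0.13, or 1.95-fold (adjusted p = 0.000676) on knockdown, and against si-Control it fell by 0.66 ± 0.13, or 1.58-fold (adjusted p = 0.00868) in the EZH2 group and fell by 0.63 ± 0.13, or 1.54-fold (adjusted p = 0.019) in the T350A group. Its second probe, ILMN_1716400, fell by 0.99, 0.73 and 0.71 in the same 3 comparisons. From si-EZH2 the FOXM1 differences were 0.30 ± 0.13 (adjusted p = 0.234) for EZH2 and 0.34 ± 0.13 (adjusted p = 0.276) for T350A. CDKN3, a phosphatase that acts on cyclin-dependent kinases, read 7.48, 7.49 and 7.32 on the si-Control arrays, 6.88, 6.72 and 6.89 on the si-EZH2 arrays, 7.36, 7.41 and 7.49 on the EZH2 arrays and, for T350A, 7.19, 7.22 and 7.24. It fell by 0.59 ± 0.10, or 1.51-fold (adjusted p = 0.00259) on knockdown and rose by 0.59 ± 0.10 (adjusted p = 0.00507) from there with EZH2, which brought it to the si-Control range. Its T350A arrays lay between the si-EZH2 and si-Control arrays without overlapping either, and neither difference passed, at 0.39 ± 0.10 (adjusted p = 0.108) from si-EZH2 and -0.21 ± 0.10 (adjusted p = 0.254) from si-Control.

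CCNB2, a B-type cyclin that activates CDK1, rose by 0.70 ± 0.12, or 1.62-fold (adjusted p = 0.00558) with EZH2 re-expression, and CCNA2, the A-type cyclin, rose by 0.57 ± 0.13, or 1.48-fold (adjusted p = 0.0264). CCNB1 and CDK1, the cyclin and kinase at the centre of mitotic entry, differed by 0.44 ± 0.12 (adjusted p = 0.0695) and 0.33 ± 0.11 (adjusted p = 0.118) and were not called. The array values of CDK1, given after they were seen, did not overlap between si-EZH2 (6.69 to 7.06) and si-Control (7.18 to 7.29), with a difference of -0.34 ± 0.11 (adjusted p = 0.119). CDC25B, a phosphatase that activates CDK1, read 11.09, 11.19 and 11.11 on the si-Control arrays, 11.43, 11.07 and 11.23 on the si-EZH2 arrays, 11.41, 11.23 and 11.18 on the EZH2 arrays and, for T350A, 11.13, 11.27 and 11.17. Its 4 groups overlapped, and its F-test gave the largest p of the role group. CKS1B and CKS2, small partners of cyclin-dependent kinases, were likewise uncalled, and CDC25C, the other phosphatase, differed by -0.24 ± 0.13 (adjusted p = 0.365) on knockdown.

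The mitotic kinases PBK and NEK2 rose above si-Control with wild-type EZH2. PBK, a kinase active in mitosis, read 6.43, 6.65 and 6.50 on the si-Control arrays, 6.17, 6.46 and 6.39 on the si-EZH2 arrays, 7.09, 7.12 and 7.05 on the EZH2 arrays and, for T350A, 6.59, 6.72 and 6.64. NEK2, a kinase of centrosome separation, read 5.69, 5.82 and 5.65 on the si-Control arrays, 5.59, 5.52 and 5.95 on the si-EZH2 arrays, 6.23, 6.40 and 6.36 on the EZH2 arrays and, for T350A, 5.83, 5.87 and 5.80. In both, the 3 EZH2 re-expression arrays were higher than all 9 others. PBK rose by 0.75 ± 0.10, or 1.68-fold (adjusted p = 0.00266) against si-EZH2 and by 0.56 against si-Control (adjusted p = 0.00523). NEK2 rose by 0.65 ± 0.12, or 1.56-fold (adjusted p = 0.00868) against si-EZH2 and by 0.61 against si-Control (adjusted p = 0.00607). The second NEK2 probe, detected on 4 arrays, differed by -0.03 ± 0.17 (adjusted p = 0.947) from si-EZH2. AURKA, MELK and PLK1 were not called in any comparison.

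BIRC5 had the largest fall and the largest recovery of the set. BIRC5 (survivin), a subunit of the chromosomal passenger complex, read 7.76, 7.95 and 7.88 on the si-Control arrays, 6.66, 7.09 and 6.66 on the si-EZH2 arrays, 7.54, 7.80 and 7.69 on the EZH2 arrays and, for T350A, 7.21, 7.57 and 7.40. The si-EZH2 arrays were the lowest, the T350A arrays were intermediate, with replicate 2 just above the lowest EZH2 array, and the EZH2 arrays overlapped si-Control. BIRC5 fell by 1.06 ± 0.13, or 2.08-fold (adjusted p = 0.000272) on knockdown and rose by 0.87 ± 0.13, or 1.83-fold (adjusted p = 0.00354) from si-EZH2 with EZH2 re-expression. With T350A the difference from si-EZH2 was 0.59 ± 0.13 (adjusted p = 0.0799), the smallest adjusted p of any member in that comparison. CDCA8 (borealin), another subunit, read 6.31, 6.51 and 6.38 on the si-Control arrays, 6.08, 6.76 and 6.01 on the si-EZH2 arrays, 6.89, 6.46 and 6.54 on the EZH2 arrays and, for T350A, 6.27, 6.04 and 6.10. On this gene si-EZH2 replicate 2 was higher than all si-Control arrays, and no comparison was called. AURKB, the kinase of the complex, differed by 0.42 ± 0.17 (adjusted p = 0.195) between EZH2 re-expression and si-EZH2.

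At the kinetochore, CENPF and CENPA carried the calls. CENPF, a large protein of the outer kinetochore, read 6.63, 6.69 and 6.87 on the si-Control arrays, 6.27, 6.31 and 6.30 on the si-EZH2 arrays, 6.71, 6.88 and 6.88 on the EZH2 arrays and, for T350A, 6.38, 6.52 and 6.44. It fell by 0.44 ± 0.10, or 1.35-fold (adjusted p = 0.0266) on knockdown and rose by 0.53 ± 0.10, or 1.44-fold (adjusted p = 0.0113) with EZH2 re-expression, and its T350A arrays lay above all si-EZH2 arrays and below all EZH2 arrays without a call. CENPA, the centromeric histone H3 variant, read 6.10, 5.77 and 5.94 on the si-Control arrays, 5.87, 5.63 and 5.78 on the si-EZH2 arrays, 6.68, 6.56 and 6.38 on the EZH2 arrays and, for T350A, 5.90, 6.25 and 5.75. CENPA rose by 0.78 ± 0.14, or 1.72-fold (adjusted p = 0.00733) from si-EZH2 and by 0.60 over si-Control (adjusted p = 0.0155), while its knockdown difference was -0.18 ± 0.14 (adjusted p = 0.567). Its dimmer probe, detected on 7 arrays, differed by 0.05 ± 0.13 (adjusted p = 0.885). SPC25, a subunit of the NDC80 complex that binds microtubules, read 5.26, 5.54 and 6.09 on the si-Control arrays, 4.81, 5.42 and 5.76 on the si-EZH2 arrays, 5.48, 5.56 and 5.40 on the EZH2 arrays and, for T350A, 5.99, 4.92 and 5.34. All 4 groups overlapped, and it was not called. The motor CENPE differed by 0.21 ± 0.13 (adjusted p = 0.429) on its brighter probe. Its dimmer probe was not well above background on any si-EZH2 array and was at least 1.41-fold higher with EZH2 (adjusted p = 0.00543). The checkpoint genes BUB1, BUB1B, MAD2L1 and TTK and the NDC80 subunits NDC80 and NUF2 were not called in any comparison.

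Among the kinesins, KIF20A followed EZH2 whereas KIF11, on its brighter probe, did not. KIF20A, a motor of cytokinesis, read 8.21, 8.17 and 8.05 on the si-Control arrays, 7.25, 7.75 and 7.38 on the si-EZH2 arrays, 8.10, 8.30 and 8.44 on the EZH2 arrays and, for T350A, 7.62, 7.69 and 7.83. It fell by 0.68 ± 0.13, or 1.60-fold (adjusted p = 0.00927) on knockdown and rose by 0.82 ± 0.13, or 1.77-fold (adjusted p = 0.00463) with EZH2 re-expression, and all 3 T350A arrays lay below the si-Control and EZH2 arrays. KIF11, the motor that pushes spindle poles apart, read 7.69, 7.50 and 7.58 on the si-Control arrays, 7.04, 7.17 and 7.11 on the si-EZH2 arrays, 6.96, 7.23 and 7.08 on the EZH2 arrays and, for T350A, 6.91, 6.83 and 7.12. All 9 arrays with the siRNA against EZH2 were below si-Control. KIF11 fell by 0.48 ± 0.11, or 1.40-fold (adjusted p = 0.026) on knockdown, and against si-Control it fell by 0.50 ± 0.11, or 1.41-fold (adjusted p = 0.0136) in the EZH2 group and fell by 0.63 ± 0.11, or 1.55-fold (adjusted p = 0.00591) in the T350A group. The second KIF11 probe gave smaller differences that were not called, of -0.17, -0.02 and -0.25. KIF22, a chromosome-arm motor, read 7.84, 7.92 and 7.41 on the si-Control arrays, 7.46, 7.93 and 7.46 on the si-EZH2 arrays, 7.85, 7.74 and 7.86 on the EZH2 arrays and, for T350A, 7.88, 7.61 and 7.62, with overlapping groups. KIF18A, which controls chromosome alignment, rose by 0.55 ± 0.12, or 1.46-fold (adjusted p = 0.0228) with EZH2 re-expression. The other kinesins, KIF2C, KIF4A, KIF14, KIF15 and KIF23, were not called.

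**Figure D3:**
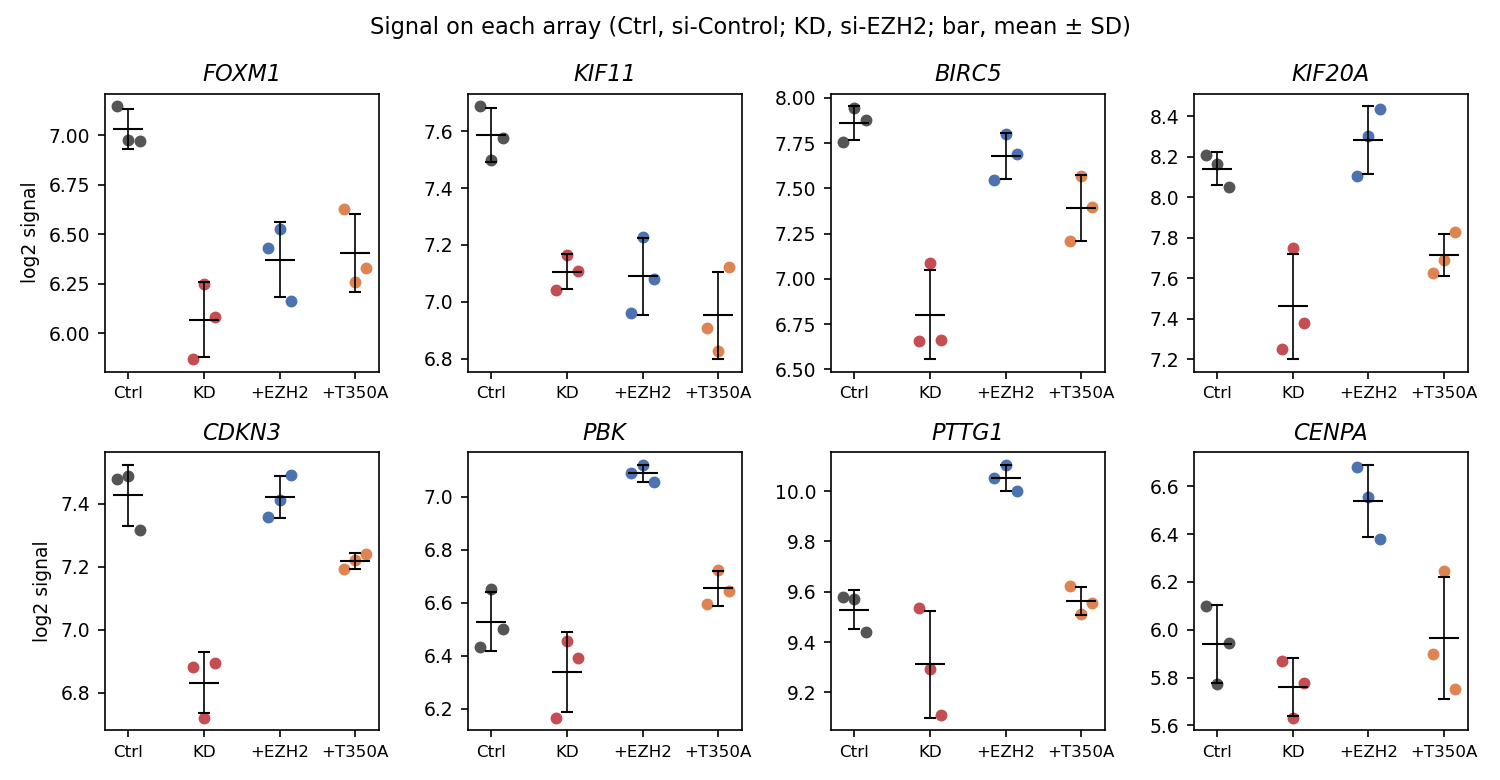
Log2 signal of 8 mitotic genes on each array, by group (Ctrl, si-Control; KD, si-EZH2; +EZH2 and +T350A, the re-expression groups), with the mean and SD of 3 arrays; each panel has its own vertical axis. Each gene is shown by its brightest probe. FOXM1 and KIF11 stay low in all 3 groups given the siRNA against EZH2. BIRC5, KIF20A and CDKN3 fall and return with EZH2, and PBK, PTTG1 and CENPA are highest with EZH2.

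Among 7 spindle proteins, NUSAP1 and DLGAP5 were called. NUSAP1, which bundles spindle microtubules, read 7.87, 7.64 and 7.57 on the si-Control arrays, 7.18, 7.36 and 6.63 on the si-EZH2 arrays, 7.89, 7.83 and 7.61 on the EZH2 arrays and, for T350A, 7.43, 7.47 and 7.48. NUSAP1 fell by 0.63 ± 0.15, or 1.55-fold (adjusted p = 0.0373) on knockdown and rose by 0.72 ± 0.15, or 1.65-fold (adjusted p = 0.0236) with EZH2 re-expression, and its second probe was called in the same directions. DLGAP5, a spindle assembly factor, read 6.90, 7.23 and 7.06 on the si-Control arrays, 6.62, 7.10 and 6.89 on the si-EZH2 arrays, 7.84, 7.40 and 7.56 on the EZH2 arrays and, for T350A, 6.96, 6.92 and 7.27. DLGAP5 rose by 0.73 ± 0.15, or 1.66-fold (adjusted p = 0.0177) from si-EZH2, and by 0.54 over si-Control (adjusted p = 0.0403). Its second probe was called from si-EZH2 and not over si-Control (0.43, adjusted p = 0.118). HMMR, a spindle protein that also binds hyaluronan, read 8.09, 7.89 and 8.08 on the si-Control arrays, 7.64, 7.92 and 7.61 on the si-EZH2 arrays, 7.87, 7.83 and 7.99 on the EZH2 arrays and, for T350A, 7.91, 7.84 and 7.72. That brighter HMMR probe was not called, but its dimmer probe rose by 0.83 ± 0.16, or 1.78-fold (adjusted p = 0.014) with EZH2 re-expression, so the probes disagree. TPX2, which activates AURKA, missed the threshold on knockdown (-0.48 ± 0.13, adjusted p = 0.0539) and on re-expression (0.46 ± 0.13, adjusted p = 0.0622), and PRC1, TACC3 and GTSE1 were not called.

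Of 4 cytokinesis and 5 anaphase genes, ANLN, CEP55, PTTG1 and UBE2C rose from si-EZH2 with EZH2 re-expression and 0 were called on knockdown; the difference between those effects was not tested. ANLN (anillin), a scaffold of the contractile ring, read 7.17, 6.97 and 7.08 on the si-Control arrays, 7.07, 6.63 and 6.64 on the si-EZH2 arrays, 7.31, 7.22 and 7.28 on the EZH2 arrays and, for T350A, 6.73, 6.75 and 6.68. CEP55, which directs the final cut between daughter cells, read 6.96, 7.44 and 7.05 on the si-Control arrays, 6.75, 7.22 and 6.92 on the si-EZH2 arrays, 7.54, 7.59 and 7.49 on the EZH2 arrays and, for T350A, 6.90, 6.85 and 7.04. ANLN rose by 0.49 ± 0.12, or 1.40-fold (adjusted p = 0.0391) and CEP55 rose by 0.58 ± 0.14, or 1.49-fold (adjusted p = 0.0362) between si-EZH2 and EZH2 re-expression, and in both genes all T350A arrays lay below all EZH2 arrays. PTTG1 (securin), the inhibitor of separase, read 9.58, 9.57 and 9.44 on the si-Control arrays, 9.53, 9.29 and 9.11 on the si-EZH2 arrays, 10.05, 10.11 and 10.00 on the EZH2 arrays and, for T350A, 9.62, 9.51 and 9.56. UBE2C, the ubiquitin-conjugating enzyme of the anaphase-promoting complex, read 7.68, 7.68 and 7.66 on the si-Control arrays, 7.40, 7.55 and 7.47 on the si-EZH2 arrays, 8.04, 8.01 and 7.97 on the EZH2 arrays and, for T350A, 7.70, 7.58 and 7.76. On these probes the EZH2 re-expression arrays of PTTG1 and UBE2C were above all 9 others. PTTG1 rose by 0.74 ± 0.11, or 1.67-fold (adjusted p = 0.0032) from si-EZH2 and by 0.52 over si-Control (adjusted p = 0.0107). Its second probe, ILMN_1753196, also detected on 12 arrays, gave EZH2 arrays of 8.96 to 9.27 that overlapped si-Control (8.82 to 9.18), and its differences were not called, at 0.42 from si-EZH2 (adjusted p = 0.0809) and 0.16 from si-Control (adjusted p = 0.481). UBE2C rose by 0.53 ± 0.09, or 1.45-fold (adjusted p = 0.00733) and by 0.33 (adjusted p = 0.041). CDC20 rose by 0.78 ± 0.22, or 1.72-fold (adjusted p = 0.0466) against si-Control but missed the threshold from si-EZH2 (0.77 ± 0.22, adjusted p = 0.0799).

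The remaining members gave no call. CDCA3, a trigger of mitotic entry, read 6.05, 6.14 and 6.12 on the si-Control arrays, 5.95, 6.30 and 5.95 on the si-EZH2 arrays, 6.54, 6.56 and 6.35 on the EZH2 arrays and, for T350A, 6.15, 6.01 and 6.47. TOP2A, the topoisomerase that untangles chromosomes, read 8.59, 8.72 and 8.64 on the si-Control arrays, 8.59, 8.49 and 8.22 on the si-EZH2 arrays, 8.73, 8.93 and 8.43 on the EZH2 arrays and, for T350A, 8.49, 8.36 and 8.39. The EZH2 arrays of CDCA3 were above all si-EZH2 arrays, and those of TOP2A overlapped them. ECT2 and RACGAP1, which set the division plane, differed by 0.42 ± 0.11 (adjusted p = 0.0524) and 0.26 ± 0.11 (adjusted p = 0.216) between EZH2 re-expression and si-EZH2. The cohesin factor CDCA5 and the protease separase (ESPL1, detected on 7 arrays) differed by 0.29 ± 0.13 (adjusted p = 0.245) and 0.23 ± 0.13 (adjusted p = 0.385). At the detection threshold, a KIF23 probe detected on 3 arrays was kept with a mean signal of 4.86, and a MAD2L1 probe detected on 2 arrays was left out at 4.69.

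The knockdown lowered a minority of the mitotic genes and raised 0. In si-EZH2 minus si-Control 7 of 55 genes fell (12.7%), where 1.5% of all tested genes fell, and 48 were not called. The 7 were FOXM1 and CDKN3 among the entry regulators, BIRC5 among the passengers, CENPF at the kinetochore, the kinesins KIF11 and KIF20A and the spindle protein NUSAP1. Of the 48 others 42 were lower and 6 higher, and the median over all 55 was -0.22, beside 0.00 over all tested genes. In 17 of 55 genes all 3 si-EZH2 arrays were below all 3 si-Control arrays (30.9%), where this held for 12.1% of all genes. The median was -0.33 without si-EZH2 replicate 2, and 8 genes were then called. Leaving out si-EZH2 replicate 1 gave 3 calls, and leaving out si-EZH2 replicate 3 or si-Control replicate 3 gave 4 in each case. Over all tested genes these fits, in the order given, had 276, 276, 270 and 281 calls, against 436 in the main fit. BIRC5, FOXM1 and CDKN3 were called in all 12 fits that left out 1 array, and KIF20A in 11 of them. With chip section as a linear term the median was -0.26, and NUSAP1 was the call lost (-0.58, adjusted p = 0.121).

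Re-expression of wild-type EZH2 raised genes of 8 of the 9 role groups. Compared with si-EZH2, 16 of 55 genes rose (29.1%) and 0 fell, where 1.87% of all tested genes rose. They were CCNA2, CCNB2 and CDKN3 among 10 entry regulators, NEK2 and PBK among 5 kinases, BIRC5 among 3 passengers, CENPA and CENPF among 10 kinetochore genes and KIF18A and KIF20A among 9 kinesins. The others were NUSAP1 and DLGAP5 among 7 spindle proteins, ANLN and CEP55 among 4 cytokinesis genes and PTTG1 and UBE2C among 5 anaphase genes. The median over the 55 genes was 0.37, with 51 higher, beside -0.01 over all genes. In 28 genes (50.9%) the 3 EZH2 arrays were above the 3 si-EZH2 arrays, where this held for 13.8% of all genes. Without si-EZH2 replicate 2 the median was 0.46 and 20 genes were called, beside 429 of all tested genes. Without si-EZH2 replicate 1 or 3 or EZH2 re-expression replicate 2, 9, 10 and 10 genes were called. Over all tested genes the calls were then 140, 142 and 176, against 464 in the main fit. CCNB2, CDKN3, PBK, BIRC5, CENPA, KIF20A, UBE2C and PTTG1 were called in all 12 fits that left out 1 array. The si-EZH2 arrays (positions 5, 7 and 8) and the EZH2 arrays (9, 10 and 11) did not overlap in position on the chip. With chip section as a linear term the median was 0.35 and 11 genes were called, while the calls over all tested genes went from 464 to 253. CCNA2, KIF18A, DLGAP5, ANLN and CEP55 were lost, with differences of 0.51 to 0.63 and adjusted p of 0.051 to 0.104.

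Against si-Control, wild-type EZH2 left some mitotic genes higher and others lower than they had been. EZH2 itself was above its si-Control level in this group, 4.68-fold by probe ILMN_1652913 and 7.18-fold by ILMN_2364529. Probe ILMN_1708105, which did not rise with the virus, was 1.93-fold below it. In EZH2 re-expression minus si-Control 7 of 55 genes rose (12.7%) and 2 fell, where 4.32% of all tested genes rose and 4.48% fell. The 7 were PBK, NEK2, CENPA, DLGAP5, CDC20, UBE2C and PTTG1, and the 2 were FOXM1 and KIF11. The median was 0.14, with 37 genes higher, and 20 genes (36.4%) had all 3 EZH2 arrays above si-Control, against 16.1% of all genes. The si-Control and EZH2 arrays did not overlap in position on the chip either. With section as a linear term the median was 0.12, again with 37 genes higher, and 2 members were called, CENPA higher and KIF11 lower, while the calls over all tested genes went from 1112 to 177. Without si-Control replicate 1 the member count was 5 and without EZH2 re-expression replicate 1 it was 4. Over all tested genes these fits gave 557 and 610 calls. FOXM1, NEK2, PBK and PTTG1 were called in all 12 fits that left out 1 array and lost with the section term, with adjusted p of 0.146, 0.0971, 0.105 and 0.0632. The other calls were less stable. Of 24 alternatives, the call was lost in 14 for CDC20, 12 for UBE2C, 9 for DLGAP5, 4 for CENPA and 3 for KIF11.

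With T350A re-expression most mitotic genes read higher than in si-EZH2, and 0 were called. Between T350A re-expression and si-EZH2 0 of 55 genes passed limma's test and 11 (20%) had an unadjusted p under 0.05, where 0.111% and 14.8% of all tested genes did. The median was 0.15, with 43 genes higher, and 12 genes (21.8%) had all T350A arrays above all si-EZH2 arrays, against 9.82% of all genes. The largest difference was that of BIRC5, given above, and BIRC5 was called higher under 5 alternatives, among them limma-trend and the authors' values (adjusted p from 0.0106 to 0.0213, and up to 0.259 under the others). Without si-EZH2 replicate 2 the median was 0.20 and 1 gene was called, CDC20, which rose by 0.82 (adjusted p = 0.00821). Over all tested genes 12 were then called. The median was 0.06 without si-EZH2 replicate 1 and 0.12 without replicate 3. Against si-Control 2 genes fell with T350A, FOXM1 and KIF11 (3.64%), where 2.1% of all tested genes fell, and 0 rose. The median there was -0.09, and 17 genes (30.9%) had all T350A arrays below si-Control, against 13.3% of all genes. KIF11 was called there in all 12 fits that left out 1 array and FOXM1 in 9.

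Set directly against each other, the T350A arrays read lower than the wild-type arrays in most mitotic genes, and no single gene passed. In T350A re-expression minus EZH2 re-expression 50 of 55 genes were lower (90.9%), where 50.5% of all tested genes were. The median was -0.24, beside 0.00 over all genes. In 24 genes (43.6%) all 3 T350A arrays were below all 3 EZH2 arrays, against 7.88% of all genes, and in 1 gene, CKS2, they were above. By limma 0 of 55 were called and 22 (40%) had an unadjusted p under 0.05, where 0% and 8.76% of all tested genes did. The largest differences were those of CEP55 (-0.61 ± 0.14, adjusted p = 0.218), CENPA (-0.57 ± 0.14, adjusted p = 0.218), KIF20A (-0.57 ± 0.13, adjusted p = 0.218), DLGAP5 (-0.55 ± 0.15, adjusted p = 0.293) and ANLN (-0.55 ± 0.12, adjusted p = 0.194). CCNB2, KIF20A, CEP55 and PTTG1 were called lower under 4 of the alternatives, with no background correction, with an offset of 50, on the authors' values and with limma-trend and robust moderation. For CCNB2 the adjusted p under those settings was 0.0247, 0.026, 0.0193 and 0.022, and over all its alternatives it ranged from 0.0193 to 0.403. The EZH2 transcript was lower with T350A than with wild type on both probes that rose with the viruses. The difference was -0.56 ± 0.13 (adjusted p = 0.211) on ILMN_1652913. On ILMN_2364529 it was -1.29 ± 0.12, or 2.45-fold (adjusted p = 0.000254), and was called. The part of this EZH2 difference in those of the mitotic genes was not tested. On their brightest probes FOXM1 and KIF11 were below si-Control in both groups. The comparison did not tell the groups apart in either gene, at 0.03 ± 0.13 (adjusted p = 0.97) for FOXM1 and -0.14 ± 0.11 (adjusted p = 0.772) for KIF11.

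**Figure D4:**
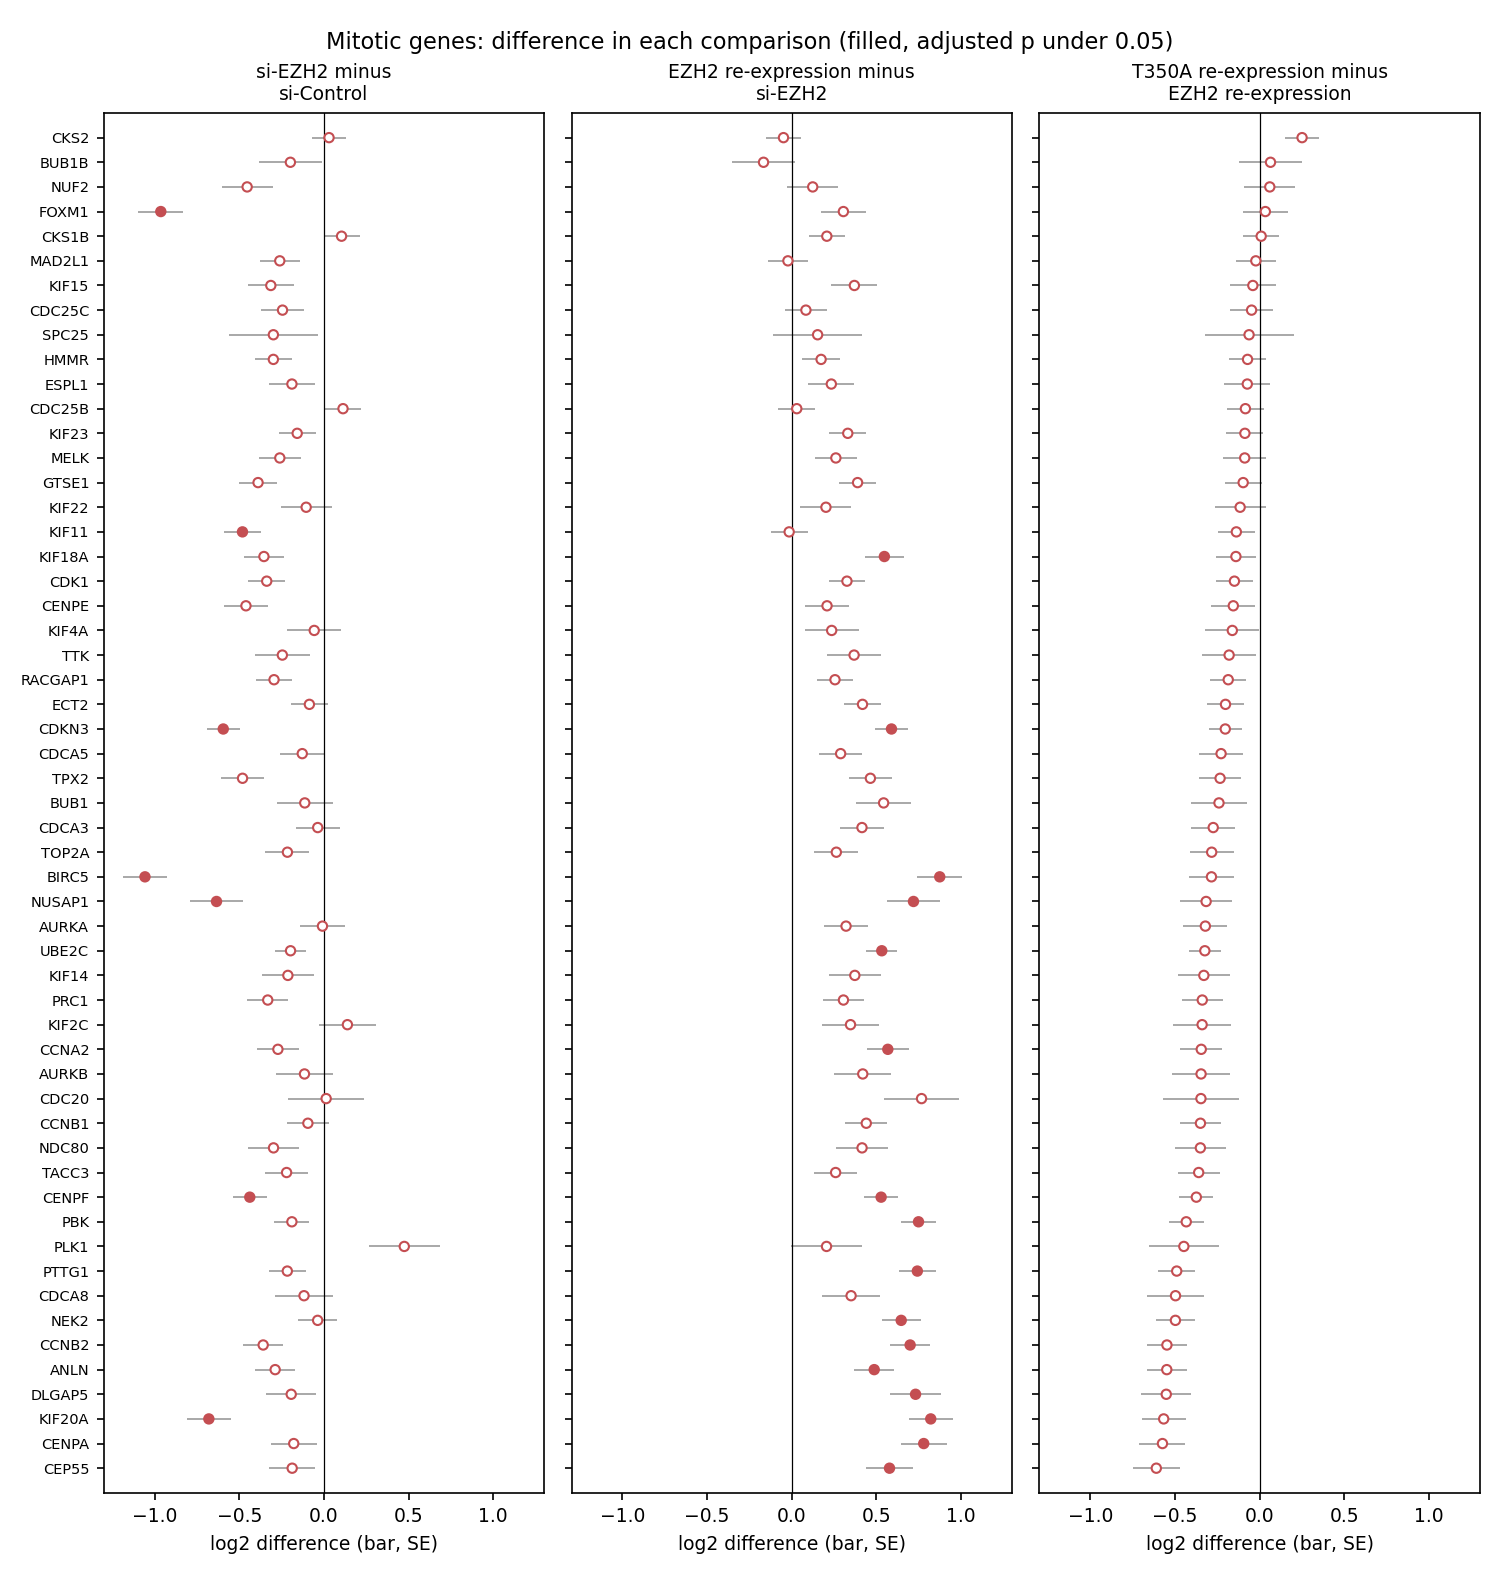
Log2 difference of each of the 55 mitotic genes in 3 comparisons (bars, SE), ordered by the difference between T350A and EZH2 re-expression; filled points passed an adjusted p under 0.05. Most points lie left of 0 for the knockdown, right of 0 for EZH2 re-expression and left of 0 for T350A against EZH2, where 0 are filled.

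Other genes of the division pathway, from a second list of 81 names, gave fewer calls. Of these 72 were detected, and MKI67, the proliferation marker, was not among them. On knockdown MIS12 of the kinetochore rose by 0.46 ± 0.10 (adjusted p = 0.0191), the spindle pole gene ASPM fell by 0.46 ± 0.11 (adjusted p = 0.0294) and the chromatin protein HMGB2 fell by 0.37 ± 0.09 (adjusted p = 0.0464), which is 4.17% of 72 against 3.45% of all tested genes called in either direction. With EZH2 re-expression CENPM, a centromere protein, rose by 0.54 ± 0.13 (adjusted p = 0.0395) and FAM83D, a spindle protein, rose by 0.56 ± 0.13 (adjusted p = 0.03) from si-EZH2, or 2.78% against 3.67%. These shares of calls are near those of all genes. In 19 of the 72 (26.4%) all EZH2 arrays were above all si-EZH2 arrays, against 13.8% of all genes, and in 5 they were below. All T350A arrays were below all EZH2 arrays in 12 (16.7%), against 7.88% of all genes, and above in 2. On knockdown all si-EZH2 arrays were below si-Control in 13 (18.1%), against 12.1% of all genes, and above in 3. The list's medians were -0.03 on knockdown, 0.08 with EZH2 and -0.09 for T350A minus EZH2. The 8 condensin and cohesin genes had medians of -0.23 and 0.34 in the knockdown and EZH2 comparisons with 0 called, and the 12 anaphase-promoting complex genes medians of -0.03 and 0.02, also with 0 called.

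Of the regulators of these promoters, LIN9, a subunit of MuvB, was lower than si-Control in both re-expression groups. LIN9 fell by 0.69 ± 0.15 (adjusted p = 0.0124) with EZH2 and fell by 0.66 ± 0.15 (adjusted p = 0.0257) with T350A, and its knockdown difference was -0.33 ± 0.15 (adjusted p = 0.292). MYBL2 (B-MYB), near the detection limit with group means of 5.05 to 5.29, differed by 0.17 ± 0.23 (adjusted p = 0.79) on knockdown and was not called. Among 9 detected DREAM and MuvB genes LIN9 was the one called, in the 2 comparisons above. The other calls of this list against si-Control were rises of SPC24 and FAM83D with EZH2 (4.17% of 72 called with LIN9, against 8.8% of all genes) and falls of SMC4, CKAP2 and ARHGAP11A with T350A (5.56% with LIN9, against 4.21%).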

How the data were processed

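RNA of BJ cells was measured on 12 Illumina arrays, in 4 groups of 3 taken from the labels. Per the file headers, the deposited raw table held an intensity, on a linear scale, and a detection p-value for every probe on every array. The authors' normalized intensity values, whose method is not given in the sources used here, served as an alternative. Gene symbols came from GEO's platform annotation, which gave 1 symbol to 30113 probes, several to 8 and none to 17110. The function neqc (limma 3.58.1, R 4.3.3) corrected their background, added an offset of 16, normalized by quantiles and took log2. Tests covered 23313 probes, those with a detection p under 0.05 in 3 or more arrays. The model had 1 mean for each group over all 12 arrays, and limma's moderated tests (2-sided, 8 residual and 7.29 prior degrees of freedom) were adjusted by Benjamini-Hochberg over all tested probes, with calls at an adjusted p under 0.05. Errors of differences are limma standard errors, and those of means are SDs over 3 arrays. The number of arrays limits the precision.

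A gene was represented by its brightest tested probe. The test was checked on simulated data for the knockdown comparison, with independent noise for each probe. It recovered large changes more fully than small ones there, so a gene not called may still differ. The simulated arrays held no deviation shared among genes, such as that of si-EZH2 replicate 2. Per-array values were given for FOXM1, BIRC5 and, in each role, the 2 genes with the smallest F-test p and the 1 with the largest (in roles of 5 or fewer genes the first 2 only). Up to 4 called genes of the second list were named per comparison, with MKI67 and MYBL2. The members, lists and tests were chosen with earlier results of these data known. Promoters came from RefSeq. Alternatives changed the background correction, offset, scaling, filter, moderation, probe summary, array weights, chip section, replicate block and the arrays used.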

Additional observations from a re-analysis of the deposited data

Results flagged for a closer look

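The mean over the 55 measured mitotic genes lay on opposite sides of si-Control in the 2 re-expression groups. Both groups also received the siRNA against EZH2, and both means were above that of si-EZH2, at -0.245 ± 0.145 (SD, n = 3). One si-EZH2 array, replicate 2 at -0.08, lay above the T350A arrays. All 3 EZH2 re-expression arrays lay above 0, and all 3 T350A arrays lay below it, at -0.13 to -0.09 on the log2 scale. T350A re-expression minus EZH2 re-expression was -0.248 for this mean, and the difference was not tested.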

How the results depend on the processing

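All medians over the mitotic genes kept their direction under all 24 alternatives, and of 7866 values of single genes 7397 kept direction and call, 117 lost a call, 145 gained one and 207 changed sign. All 207 were uncalled in both fits, and in 201 of them the main difference was under its standard error. The other 6 were KIF4A in EZH2 minus si-Control with chip section (-0.0906), CENPE (0.113) and HMMR (0.209) in that comparison and RACGAP1 in T350A minus si-Control (0.00292) as means over probes, KIF14 in EZH2 minus si-Control without si-Control replicate 3 (-0.0167, up to 0.291 without other arrays), and PLK1 in T350A minus si-EZH2 without si-EZH2 replicate 2 (0.0690, down to -0.408 without other arrays). Leaving out 1 array at a time moved the F-test count between 11 and 25 and gave 11 with chip section. It moved the counts between 3 and 8 on knockdown, 9 and 20 for EZH2 minus si-EZH2, 0 and 1 for T350A minus si-EZH2, 4 and 11 for EZH2 minus si-Control and 1 and 5 for T350A minus si-Control, and left T350A minus EZH2 at 0. The medians, in the same order, ranged from -0.328 to -0.171, 0.335 to 0.461, 0.0603 to 0.200, 0.120 to 0.174 and -0.121 to -0.0883, and for T350A minus EZH2 from -0.293 to -0.207. For T350A minus si-Control the count was 1 without si-Control replicate 1 or T350A replicate 2 or 3, and 5 without si-EZH2 replicate 2.

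With no background correction, an offset of 50 and the authors' values the median of EZH2 minus si-EZH2 was 0.251, 0.258 and 0.252, that of T350A minus EZH2 -0.189, -0.195 and -0.186, that of EZH2 minus si-Control 0.0921, 0.0906 and 0.0887, and that of T350A minus si-Control -0.0595, -0.0621 and -0.0639. Member counts under these 3 settings were 1, 1 and 1 for T350A minus si-EZH2 and 4, 5 and 4 for T350A minus EZH2. They were 14, 14 and 14 for EZH2 minus si-Control and 6, 7 and 5 for T350A minus si-Control. Counts over all tested genes rose as well, from 14 in the main fit to 226, 284 and 258 for T350A minus si-EZH2. For T350A minus EZH2 they went from 0 to 18, 29 and 20. Against si-Control they went from 1112 to 1683, 1824 and 1720 for EZH2 and from 532 to 995, 1115 and 1027 for T350A. With limma-trend the counts were 1, 5 and 6 for T350A minus si-EZH2, minus EZH2 and minus si-Control. Over all tested genes they were 281, 34 and 1039. With a detection p under 0.01 on all 12 arrays, 46 of the 55 genes were left. The mitotic counts were then 2 for T350A minus si-EZH2, 15 for EZH2 minus si-Control and 6 for T350A minus si-Control. Over all genes kept they were 184, 1683 and 1010. The mitotic median of T350A minus EZH2 was then -0.284. Chip section gave 2 mitotic calls for EZH2 minus si-Control, and 177 over all tested genes. Median scaling gave medians of 0.0499 for EZH2 and -0.165 for T350A minus si-Control. The latter had 5 calls, beside 650 over all tested genes. Under that scaling the medians over all tested genes were -0.0793 and -0.0614 in these 2 comparisons. The mean over probes gave a mitotic median of -0.0580 for T350A minus si-Control. The cause of these shifts was not tested. Same-numbered arrays of different groups deviated together little, if at all (r from -0.0363 to 0.0709 over 18 pairs, with 6 of 12 arrays closest to their own number). The median r was 0.0156 for these pairs and -0.00722 for 36 pairs of different number. With the replicate number as a block the counts were 8 on knockdown and 16 for EZH2 minus si-EZH2. Against si-Control they were 7 for EZH2 and 3 for T350A. Over all tested genes the counts, in the same order, were 400, 386, 1007 and 484. Signals near background, as for KIF4A (detected on 5 arrays) and ESPL1 (on 7), limit which differences can be seen.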
